A study of Mus musculus with 6 samples.

Results

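B cells made up 2267 of the 7300 distinct cells profiled from the lymph nodes of pregnant mice, or 31.1%. They are the cells that the authors' deposited annotation calls B, 1 of its 9 classes. The remaining cells were mostly CD4+ and CD8+ T cells (1918 naive CD8+ and 1703 naive CD4+ the most numerous), with 73 myeloid and 54 NK cells. The B cells carried 5808623 unique molecular identifiers (UMIs, each standing for 1 captured transcript molecule) over a table of 14125 genes. A B cell had a median of 2261 UMIs from 1030 genes.

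The nodes came from 7 dams, 4 labelled Aire-DTR and 3 labelled WT, all bred to BALB/c males. Every dam, WT included, received diphtheria toxin (DT) over the first 9 days of pregnancy. The toxin kills cells that make its receptor, which the Aire-DTR mice carry under the control of Aire. Uterine-draining nodes (udLN) and brachial nodes (brLN) were taken from each dam at embryonic day 9.5. Phenotype labels give IUGR for 3 Aire-DTR dams (mice 8, 36 and 7) and resorbed for the fourth (mouse 4). Cells were tagged by mouse and node with hashing antibodies and run in 3 pools of 2 wells. Pool 1 held mice 8 and 6, pool 2 held mice 36 and 97, and pool LN held mice 4, 7 and 1, so that each pool had both genotypes. By the labels 160000 cells were loaded for each of pools 1 and 2, and 13200 for pool LN. Whether loading bears on differences between pools was not tested. Mice 6, 97 and 1 are WT. The mouse is the replicate, and cells of uterus were not analysed here. The joint genotype fits, of genes and of B cell shares, took the 14 sums of both nodes without a term for mouse. Their SEs and p values thus treat the 2 nodes of a mouse as independent.

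A check of the wells preceded any count. Well 1 of pool LN stands in the deposited table in 2 copies: 2127 of its 9427 cells, 582 of them B cells, have the same barcode and the same counts as another cell, and each was counted once. Other pairs of wells shared 4 to 32 barcodes, none with identical counts, and 134 B cells had a barcode that also occurred in another well. The sample labels describe a CD45+ CD3+ sort, which would keep T cells, whereas the design text gives CD45+ alone. The many cells with B lineage transcripts go against the former. The sort and the pools limit what a share of B cells says about the whole node.

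B cells make antibodies, and before they meet antigen they carry it on the surface as the B cell receptor, in which membrane IgM or IgD is paired with the signalling chains Cd79a and Cd79b. Resting follicular B cells circulate through lymph node follicles, follow the chemokine receptor Cxcr5, live on the cytokine BAFF and present peptides on MHC class II. Each cell joins 1 heavy chain with 1 kappa or lambda light chain, built from a V segment that nearly all its light chain transcripts then share. Aire drives the display of tissue antigens in the thymus and is also made by rare cells in peripheral nodes, which the study's model targets. In the B cells themselves Aire was near the limit of detection, with a UMI in 5 of 2267 cells. This gene level does not test whether the targeted cells were lost.

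The promoters of B lineage genes are known for binding the octamer and EBF factors, so the sequences of marker genes were searched for their letters. Of the 40 genes that most set B cells apart by level, 27 had a promoter in the RefSeq table (build GRCm38.p6), taken as the 250 bases before the start. The octamer ATGCAAAT, on either strand, lay in 2 of these 27 and in 1.81% of the 27025 genes with any promoter there. The EBF letters, TCCC and GGGA with any 2 bases between, which read the same on both strands, also lay in 2 of 27, against 0.914% of those genes. None of the 12 promoters found for the 20 leading genes held either. The octamer lay 45 bases upstream of Vpreb3, a surrogate light chain partner, and 130 bases upstream of Blnk, an adaptor of receptor signalling. The EBF letters lay 49 bases upstream of Cd22, an inhibitory coreceptor, and 198 bases upstream of the sulfotransferase Chst3. These genes were picked after the search. The stretches outside annotated exons are shown for Cd79a (chr7:24897247-24897380, plus strand), as the defining gene, and for Vpreb3 (chr10:75948050-75948299, plus strand) and Cd22 (chr7:30879029-30879176, minus strand), with the matches in capitals. A match describes letters and not binding.
Cd79a: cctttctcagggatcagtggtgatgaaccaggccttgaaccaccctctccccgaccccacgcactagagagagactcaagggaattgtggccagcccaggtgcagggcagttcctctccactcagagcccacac
Vpreb3: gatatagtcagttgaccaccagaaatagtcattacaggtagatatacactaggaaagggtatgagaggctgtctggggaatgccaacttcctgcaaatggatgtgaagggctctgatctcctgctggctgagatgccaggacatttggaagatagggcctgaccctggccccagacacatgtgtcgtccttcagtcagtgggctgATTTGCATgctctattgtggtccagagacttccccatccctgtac
Cd22: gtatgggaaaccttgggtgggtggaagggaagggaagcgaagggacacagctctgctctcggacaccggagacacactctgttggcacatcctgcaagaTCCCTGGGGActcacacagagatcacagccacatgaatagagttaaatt

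The deposited name held against the defining genes. Cd79a was found in 98.3% of the B cells and in 1.37% to 10.96% of the cells of any other class. Ms4a1, which encodes CD20, was found in 87.2%. Summed over cells and scaled to the total UMIs of the class (CPM, the usual library-scaled count), Cd79a stood at 4711 CPM in B cells and 269 CPM in myeloid cells, the next highest class. Its level per mouse ran from 4627 to 4811 CPM. Since the authors assigned classes from the same expression values, such differences describe the class and were not tested.

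The 20 genes with the largest ratio of B cell level to the highest level of any other class outside the V, D and J segments included receptor components, lineage factors and coreceptors. The low-affinity IgE receptor Fcer2a was at 608 CPM against 18.6 in NK cells. Ms4a1 was at 1090 CPM against 42.5 in myeloid cells, and the lineage factor Ebf1 at 1209 against 49.6. Fcmr, the receptor for secreted IgM, was at 1068 CPM against 56.7. Pax5, which holds cells in the B lineage, was at 180 CPM against 10.6. Bcar3 had the largest ratio outside those segments, with 84.5 CPM in B cells against 0.743 in naive CD8+ T cells. It stood at 0 CPM in myeloid cells, a class of only 73 cells. The ratios rest on few UMIs in the small classes, such as 4 of Fcer2a in NK cells and 3 of Pax5 in myeloid cells. The BAFF receptor Tnfrsf13c, the complement receptor Cr2, the kinase Blk, the class II regulator H2-Ob, Ighd and the factor Mef2c completed the familiar members. Among 2765 genes of at least 50 CPM in B cells, 206 exceeded every other class by more than 2-fold, 57 of them immunoglobulin V, D or J segments. More than 10-fold was reached by 83 genes, of which 50 were such segments, here counted and not ranked.

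**Figure D1:**
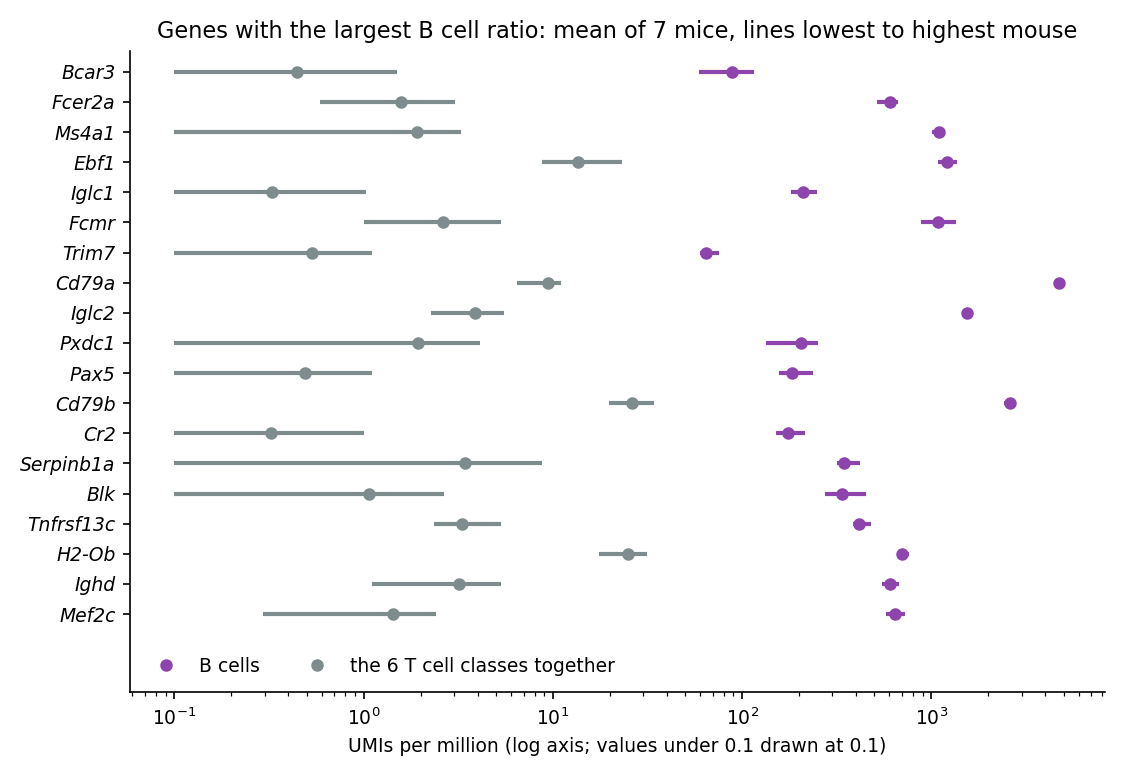
Level of the leading B cell genes in CPM (log axis) in B cells (purple) and in the 6 T cell classes together (grey). Points are means of 7 mice and lines run from the lowest to the highest mouse, and values under 0.1 are drawn at 0.1. The B cell points lie to the right of the T cell points for every gene drawn.

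By role, 10 of 13 genes of the receptor complex and coreceptors, and 10 of 14 genes of MHC class II presentation, were more than 2-fold above every other class. Of the follicular list, 10 of 10 reached 50 CPM in B cells. No germinal centre gene of 11 did so, and that list's median was 2.75 CPM. Of the plasma cell list 5 of 11 genes reached 50 CPM (median 34.9), and of the activation list 10 of 21 (median 36.3). Gcsam, a germinal centre gene, had no UMI in any B cell. The proliferation gene Mki67 had a UMI in 8 cells. A UMI of any switched constant gene was found in 55 cells (2.43%), chiefly of Igha in 45. By contrast Ighm was seen in 87.6% of the cells and Ighd in 72.5%. Of early activation markers, Cd69 was seen in 28.1% and Cd83 in 53.1%, but the costimulator Cd86 in 5.60%. Among markers of other lineages the list medians were 1.89 CPM for myeloid, 1.03 CPM for NK, 27.9 CPM for erythroid and 39.1 CPM for T cell genes. The summed erythroid list ran from 22.2 to 3121 CPM over the samples.

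A UMI of at least 1 of 6 T cell genes was found in 228 B cells (10.1%), whose median depth was 3710.5 UMIs against 2210.0 in the 2039 cells without one. Among them 119 cells had 3 or more such UMIs and a median of 5198.0 UMIs. No doublet caller was run, and whether these barcodes held a B and a T cell together was not tested. Results were recomputed without the 228 cells.

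V segment transcripts gave 51491 UMIs from kappa, 6296 from lambda and 11017 from heavy chain segments. The labels name a 3′ kit and the design text a hashtag type made for 5′ kits, so which transcript end was counted is not settled. The light chain constant genes had 6003 UMIs for Igkc and 8996 for Iglc2. Of the 2267 cells, 1906 (84.1%) had at least 2 kappa V UMIs and fewer than 2 lambda V UMIs, 107 (4.72%) had lambda V alone, 191 (8.43%) had both and 63 (2.78%) neither. The constant genes followed the V segments unevenly. Igkc stood at 1163 CPM in the kappa V cells and 229 CPM in the lambda V cells. Iglc2, a lambda constant gene, stood at 1641 CPM in the kappa V cells and 1482 CPM in the lambda V cells, and was seen in 92.1% and 88.8% of them. Iglc2 in this table therefore did not separate kappa from lambda cells, and 46.4% of the cells were mixed when called by constant genes (at least 5 UMIs, under 80% of them from 1 chain type). Iglc2 and Iglc3 share 106 windows of 31 bases, the scale at which transcripts were told apart here, and why Iglc2 counts were high in kappa V cells was not tested.

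Light chain use was broad. In the 2097 cells with at least 2 kappa V UMIs, the median share of those UMIs from a single segment was 100%, and in 60.8% of cells every one came from 1 segment. As the leading segment of a cell, 78 different kappa segments occurred, each in a median of 21.0 cells. The most frequent were Igkv10-96 in 128 cells (6.10%), Igkv1-117 in 95 and Igkv1-135 in 94. A sum over cells for a V segment thus rests on a few cells with many UMIs each, which bears on every V segment result given here.

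Clustering the 2267 cells on their own gave 6 groups, here described by leading genes, since none had 3 markers of a B cell subset among its top 10. Cluster 2, the largest with 767 cells (33.8%), had Apoe at 436 CPM against 147 in the rest, with Sfn and the glucocorticoid-responsive Tsc22d3. Cluster 3 with 603 cells (26.6%) led with Samsn1, Pxdc1, Vpreb3 at 508 CPM against 282, and Cd24a at 406 CPM against 263. Cluster 1 with 540 cells (23.8%) led with Sema4d, Cr2 and Notch2. Cluster 0 with 127 cells (5.60%) led with Bcl2a1d, Egr2, Myc and Nr4a1, genes induced by receptor signals, and had Myc at 306 CPM against 51.2. Cluster 5 with 110 cells (4.85%) led with the interferon-induced genes Ifit3, at 550 CPM against 13.0, Ifitm3 and Irf7.

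Cluster 4 with 120 cells (5.29%) led with Cd3g, Cd3e, Cd3d and Cd8b1. All its cells had a T cell UMI, its median depth was 5184.5 UMIs, and Cd79a was still seen in 73.3%. Its Cd79a level was 1536 CPM, below the 2888 to 5638 CPM of the other clusters, and H2-Aa was seen in 75.0%. It accounted for 118 of the 119 cells with 3 or more T cell UMIs. Its share followed the pool, at 2.05% in pool 1, 3.14% in pool 2 and 8.04% in pool LN. Cluster 3 also differed by pool, at 16.9%, 20.5% and 34.6%, and cluster 1 at 33.1%, 26.5% and 18.5%. Cluster 2 was at 36.7%, 39.6% and 28.6%, and cluster 5 at 4.62%, 4.78% and 4.99%.

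**Figure D2:**
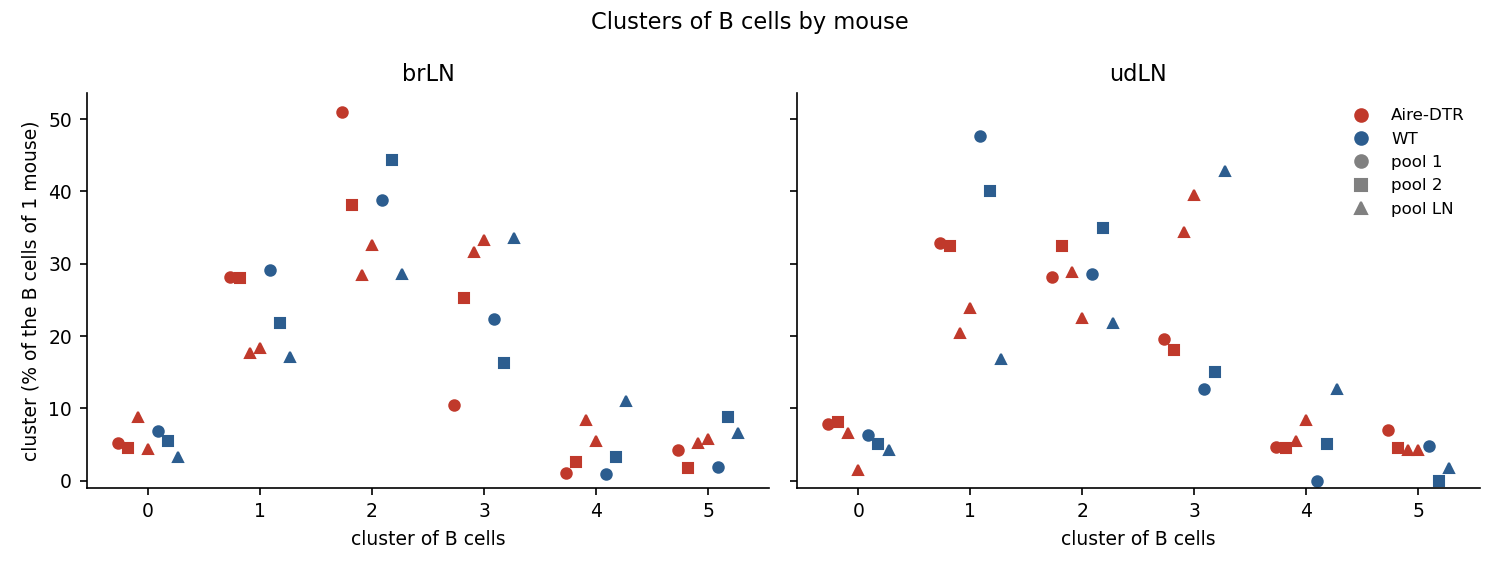
Share of the B cells of 1 mouse in each of the 6 clusters, in percent, for brLN and udLN, with 1 point per mouse coloured by genotype and shaped by pool (the axis starts just below 0). Aire-DTR and WT points intermix, and cluster 5 runs from 1.68% to 5.78% in Aire-DTR and from 1.94% to 8.79% in WT brLN.

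The first comparison between genotypes concerned the share of B cells among all cells of a node. In brLN, B cells were 33.1%, 36.7%, 31.9% and 27.7% in Aire-DTR mice 8, 36, 4 and 7, and 40.6%, 34.8% and 24.4% in WT mice 6, 97 and 1. The groups overlapped, with means of 32.4% ± 3.71 (SD, n = 4) and 33.3% ± 8.17 (SD, n = 3) and an exact two-sided permutation p of 0.914. In udLN the shares were 40.9%, 32.0%, 23.3% and 21.5% in Aire-DTR mice and 41.4%, 41.7% and 29.0% in WT mice. Here the means were 29.4% ± 8.92 (SD, n = 4) and 37.4% ± 7.28 (SD, n = 3), and the exact permutation p was 0.286, where 0.0571 is the smallest this design allows. In every pool the udLN share was lower in each Aire-DTR mouse than in the WT mouse, whereas in brLN it was lower in pool 1 alone. In a fit over all 9 classes with pool as a term, the log2 difference was 0.09 (SE 0.16) in brLN and -0.26 (SE 0.19) in udLN, with edgeR adjusted p of 0.741 and 0.680. The lowest-yield sample, WT mouse 97 udLN, held 20 B cells of 48, with a 95% Wilson interval of 28.8% to 55.7%. The best-covered, Aire-DTR mouse 7 brLN, held 294 of 1060, with an interval of 25.1% to 30.5%. Such intervals cover counting error only.

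**Figure D3:**
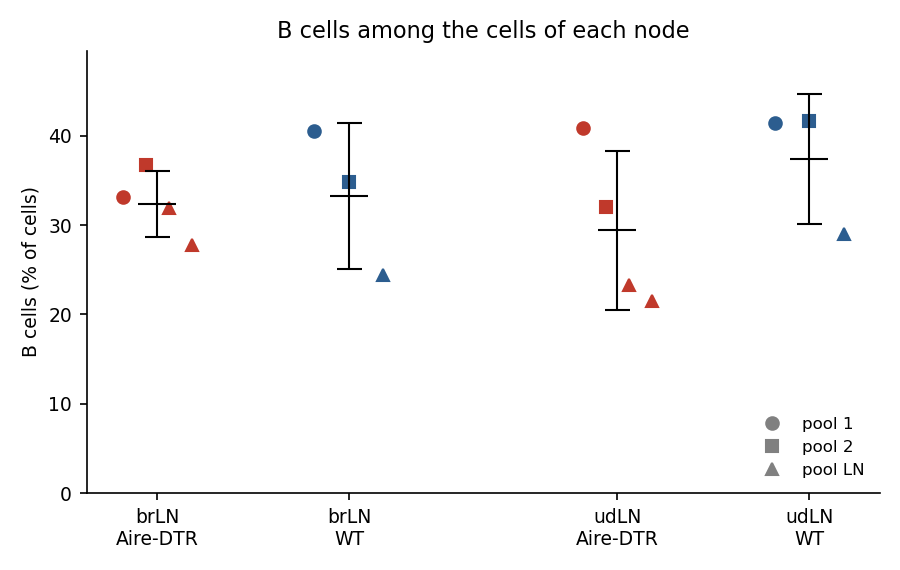
B cells as a percent of the cells of each node, by node and genotype, with 1 point per mouse shaped by pool and a black bar for the mean ± SD. The groups overlap in both nodes, and the pool LN mice (triangles) are lowest among both genotypes.

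Gene levels in B cells were compared between genotypes on sums of UMIs over the B cells of each mouse and node, which held 55056 to 924800 UMIs. No gene of the 5135 tested passed an edgeR quasi-likelihood test at an adjusted p of 0.05 in brLN (0% called) or in udLN (0% called). At an unadjusted p below 0.05 there were 171 genes in brLN and 268 in udLN. DESeq2 called 0 genes in brLN, with 53 unadjusted, and 3 in udLN, with 143 unadjusted. These 3 were the kappa V segments Igkv1-99, Igkv12-98 and Igkv8-18. Their DESeq2 log2 differences were 24.28 (SE 4.32), 17.97 (SE 3.33) and 23.46 (SE 4.32). For Igkv1-99 edgeR gave 7.87, the highest of all genes tested in udLN, and edgeR called none of the 3. Of all genes tested, 2.45% had every Aire-DTR value above every WT value in brLN and 2.86% every value below. In udLN these were 3.66% and 2.22%.

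Rbm3, which encodes an RNA-binding protein induced by cold (chromosome X, 8138975 to 8145880, minus strand, GRCm38, GENCODE), had the smallest p in udLN and was among the 5 smallest in brLN. In brLN it stood at 800, 927, 898 and 785 CPM in Aire-DTR mice 8, 36, 4 and 7, and at 618, 672 and 668 CPM in WT mice 6, 97 and 1. In udLN the values were 817, 905, 870 and 826 CPM against 515, 763 and 642 CPM. Each Aire-DTR mouse lay above each WT mouse in both nodes, within each pool as well. The log2 difference was 0.37 (SE 0.08, edgeR adjusted p 0.408) in brLN and 0.46 (SE 0.10, edgeR adjusted p 0.359) in udLN, past the unadjusted threshold but not the adjusted one. Over 20 alternative fits for each node the log2 difference ran from 0.34 to 0.41 in brLN and from 0.39 to 0.55 in udLN. Of these, 1 and 2 were past the adjusted threshold (edgeR or DESeq2 adjusted p from 0.0407 to 1.00 and from 0.0174 to 1.00). The 1 listed for brLN, and 1 of the 2 for udLN, was the same fit of both nodes summed, given next. The other for udLN was the fit with no low-count filter.

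With both nodes of a mouse summed, 4 of 7274 genes passed (0.055% called), and Rbm3 rose by 0.40 (log2, SE 0.07, adjusted p 0.0407 by edgeR). Its summed level was 853 ± 61.5 CPM (SD, n = 4) in Aire-DTR and 638 ± 53.5 CPM (SD, n = 3) in WT B cells, a ratio of 1.34. Rbm3 was measured outside the B cells as well. In all other cells together Rbm3 stood at 821 ± 100.03 CPM (SD, n = 4) and 639 ± 66.5 CPM (SD, n = 3), a ratio of 1.29, again without overlap. By class, the groups overlapped in naive CD4+ (ratio 1.28), memory CD4+ (1.18) and memory CD8+ T cells (1.15). They did not overlap in naive CD8+ (1.33) or regulatory CD4+ T cells (1.30). Cirbp, a related cold-inducible gene looked at only after Rbm3 was seen, stood at 227 ± 13.5 CPM (SD, n = 4) and 174 ± 29.8 CPM (SD, n = 3) in B cells, a ratio of 1.30. Its log2 difference was 0.35 (SE 0.14) in brLN and 0.32 (SE 0.18) in udLN, with edgeR adjusted p of 1.000 and 0.994, and in the other cells the groups overlapped. Within the B cells Rbm3 was at 1234 CPM in cluster 0 and at 651 to 951 CPM elsewhere.

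**Figure D4:**
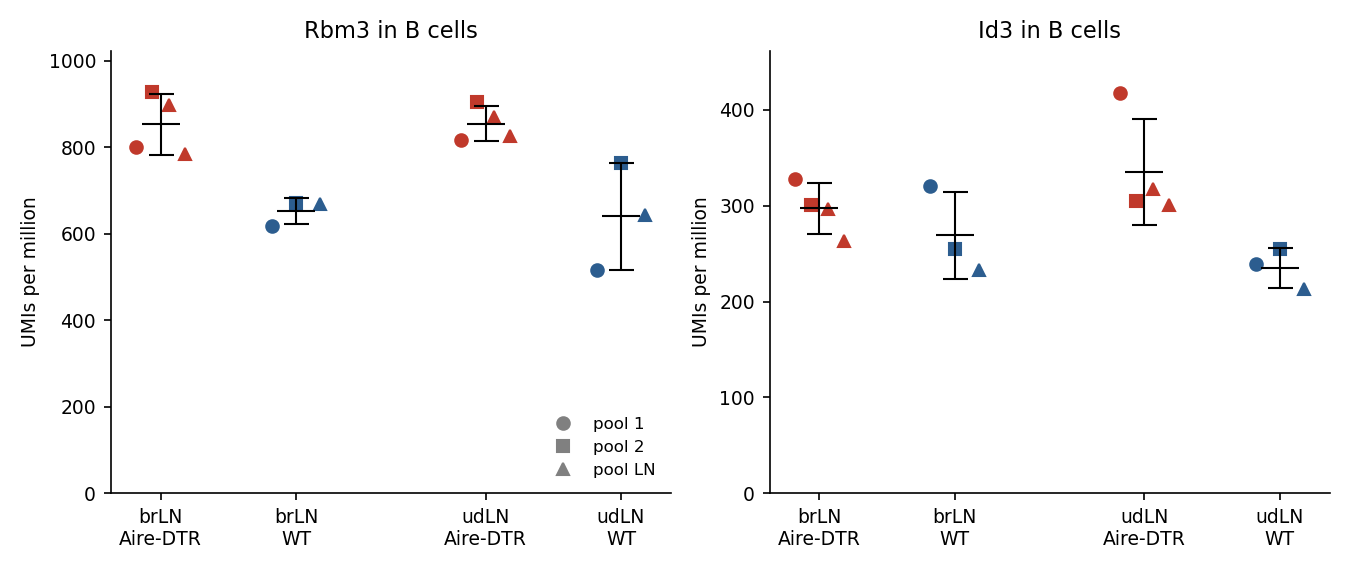
Level of Rbm3 and of Id3 in the B cells of each mouse, in CPM, by node and genotype, with 1 point per mouse shaped by pool and a black bar for the mean ± SD. Rbm3 lies higher in all 4 Aire-DTR mice than in all 3 WT mice in both nodes, and Id3 does so in udLN, where mouse 8 is highest at 417.

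Id3, an inhibitor of E proteins that restrains B cell differentiation, was at 417, 305, 317 and 301 CPM in Aire-DTR and 239, 254 and 213 CPM in WT udLN. These groups did not overlap, and the log2 difference was 0.59 (SE 0.14, edgeR adjusted p 0.359). In brLN its values were 327, 301, 297 and 263 CPM against 320, 255 and 233 CPM, which overlapped, with a log2 difference of 0.19 (SE 0.11). Among other genes without overlap in udLN, the interferon-induced Usp18 stood at 38.2, 14.2, 38.1 and 55.8 CPM in Aire-DTR and 5.43, 0 and 6.76 CPM in WT, and the survival gene Bcl2a1b at 150, 110, 85.8 and 72.5 CPM against 43.4, 54.5 and 50.7 CPM. Neither passed, with edgeR adjusted p of 0.745 and 0.883. In mice 6, 97 and 1 the WT udLN sums held 184317, 55056 and 295900 UMIs. The WT levels of Usp18 thus rest on very few UMIs. In brLN the difference of Usp18 was -0.07 (log2, SE 0.44). Traf3, a brake on survival signals, was below WT in every Aire-DTR brLN, at 22.7, 26.0, 33.3 and 31.9 CPM against 40, 42.5 and 57.7 CPM, with an edgeR adjusted p of 1.00. In udLN Traf3 stood the other way, at 44.1, 39.1, 40.5 and 22.3 CPM in Aire-DTR and 21.7, 0 and 23.7 CPM in WT, which overlap, a difference of 0.92 (log2, SE 0.44) that did not pass (edgeR adjusted p 0.954). Dapl1, the remaining brLN gene by p outside the V segments, was at 0, 8.65, 42.0 and 19.4 CPM against 7.27, 38.5 and 74.7 CPM, which overlap. Cd86 was lower in every Aire-DTR brLN and higher in every Aire-DTR udLN, and passed in neither.

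V segments supplied most of the other smallest p values. In brLN, the Aire-DTR mice 8, 36, 4 and 7 held 9, 53, 38 and 34 UMIs of Igkv4-91, where the WT mice 6, 97 and 1 held 0, 0 and 4. The udLN sums were 21, 0, 13 and 21 UMIs against 0, 0 and 0. All 193 UMIs came from 14 cells, with up to 31 in a single cell, so that each mouse with any contributed between 1 and 4 cells per node. The difference passed with both nodes summed (edgeR adjusted p 0.00162) and not in brLN (edgeR adjusted p 0.404), unless brLN was fitted alone (4.12 on the log2 scale, edgeR adjusted p 0.00430). Igkv9-124, from 15 cells, and Igkv3-10, from 31 cells, passed in the summed fit too, lower in Aire-DTR, with edgeR adjusted p of 0.0300 each.

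The remaining segments among the 5 smallest p values did not pass. In brLN, Igkv8-21 was at 72.8, 38.9, 129 and 182 CPM in Aire-DTR and 50.9, 5.31 and 36.3 CPM in WT, with an edgeR adjusted p of 0.404 (0.0395 with brLN fitted alone). Ighv2-2 was at 45.5, 104, 5.80 and 54.1 CPM against 0, 25.2 and 2.14 CPM there. In both the groups overlapped. In udLN, Igkv5-48 was at 38.2, 53.3, 23.8 and 5.58 CPM against 217, 0 and 182 CPM, Ighv5-17 at 14.7, 17.8, 47.7 and 66.9 CPM against 0, 0 and 3.38 CPM, and Igkv1-88 at 20.6, 0, 0 and 0 CPM against 385, 0 and 84.5 CPM, each with an edgeR adjusted p of 0.359. Of these 3, Ighv5-17 alone had no overlap. Igkv5-48 passed in cells without T cell UMIs and in sums of at least 50 cells (edgeR adjusted p 0.0355 and 0.0342). Both settings dropped the same sum, that of WT mouse 97, whose Igkv5-48 value was 0. It held 20 B cells, 1 of them with a T cell UMI, and so fell below the minimum of cells in each.

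The first 300 bases of the Igkv4-91 and Igkv6-15 transcripts follow, because Igkv4-91 had the smallest adjusted p of the 4 summed calls and Igkv6-15 was the call between nodes. Capitals mark bases in a 31-base window that no other gene's transcripts contain, and cover 295 and 275 of the 300 bases. Igkv4-91 lies at chr6:68768555-68769103 on the minus strand of GRCm38 (GENCODE).
Igkv4-91: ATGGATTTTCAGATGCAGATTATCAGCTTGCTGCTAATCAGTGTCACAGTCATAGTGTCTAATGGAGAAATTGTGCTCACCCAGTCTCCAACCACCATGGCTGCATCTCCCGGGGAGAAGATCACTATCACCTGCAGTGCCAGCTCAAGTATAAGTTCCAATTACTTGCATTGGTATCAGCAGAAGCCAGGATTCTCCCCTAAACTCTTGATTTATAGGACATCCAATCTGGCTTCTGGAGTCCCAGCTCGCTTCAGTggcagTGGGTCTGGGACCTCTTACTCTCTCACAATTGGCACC
Igkv6-15: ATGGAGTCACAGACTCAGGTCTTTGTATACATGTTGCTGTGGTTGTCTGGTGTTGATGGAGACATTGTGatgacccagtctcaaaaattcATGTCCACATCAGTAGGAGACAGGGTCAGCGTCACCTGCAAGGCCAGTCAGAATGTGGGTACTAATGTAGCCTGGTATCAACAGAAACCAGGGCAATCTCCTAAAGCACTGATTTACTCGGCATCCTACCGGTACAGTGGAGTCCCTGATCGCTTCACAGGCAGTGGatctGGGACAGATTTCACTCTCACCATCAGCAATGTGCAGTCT

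Genes of B cell function came next. For the receptor, Cd79a differed by -0.00 (log2, SE 0.05) in brLN and 0.06 (SE 0.06) in udLN, Ms4a1 by 0.02 (SE 0.08) and 0.12 (SE 0.10), and Ighm by 0.02 (SE 0.10) and 0.06 (SE 0.11). For antigen presentation, H2-Aa differed by 0.03 (SE 0.06) and 0.05 (SE 0.06), and the invariant chain Cd74 by -0.03 (SE 0.05) and -0.01 (SE 0.05). The chemokine receptor Ccr7 differed by -0.23 (SE 0.13) and -0.28 (SE 0.17). Cd69, an early activation marker that also holds cells in the node, was at 182, 184, 149 and 92.9 CPM in Aire-DTR and 204, 234 and 158 CPM in WT brLN, a log2 difference of -0.35 (SE 0.16). Each Aire-DTR mouse lay below the WT mouse of its pool. None of these passed.

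No tested member of the 27 gene lists passed in either node. The germinal centre list had no gene past the low-count filter, so it was not tested. Some other lists had few tested genes, such as 1 for NK markers and 2 for the B-1 list. The receptor complex list had a median log2 difference of -0.01 in brLN and 0.10 in udLN over 11 tested genes, beside 0.00 and 0.02 over all genes. Receptor signalling stood at -0.01 and 0.05 over 16 genes, lineage factors at 0.01 and -0.01 over 19, and MHC class II at -0.03 and -0.01 over 13. MHC class I stood at -0.12 and -0.14 over 11 genes, of which 2 and 1 were positive. The type I interferon list stood at -0.30 in brLN, where none of its 14 tested genes was positive, and at 0.09 in udLN, where 10 were. Within that list Ifit3 ranged from 14.1 to 60.9 CPM in Aire-DTR and from 10.9 to 94.3 CPM in WT brLN, so the groups overlapped. T cell markers stood at -0.21 and 0.44 over 11 genes, with summed list levels of 214 to 1436 CPM in Aire-DTR and 367 to 1360 CPM in WT brLN, and 426 to 943 CPM against 54.3 to 1142 CPM in udLN.

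Erythroid transcripts followed the pool. Hbb-bs, a beta globin gene that B cells do not make, was at 1796, 724, 8.69 and 5.55 CPM in Aire-DTR and 1662, 909 and 4.27 CPM in WT brLN, high in pools 1 and 2 and near 0 in pool LN. In udLN it was at 1240, 2730, 4.77 and 0 CPM against 705, 654 and 0 CPM, and its log2 difference was 1.66 (SE 0.40, edgeR adjusted p 0.359). It passed with immunoglobulin genes left out (1.66, edgeR adjusted p 9.0e-05), as the 1 gene that did in udLN, and without mouse 8 (2.45, edgeR adjusted p 6.1e-05). Its part in other results was not tested.

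**Figure D5:**
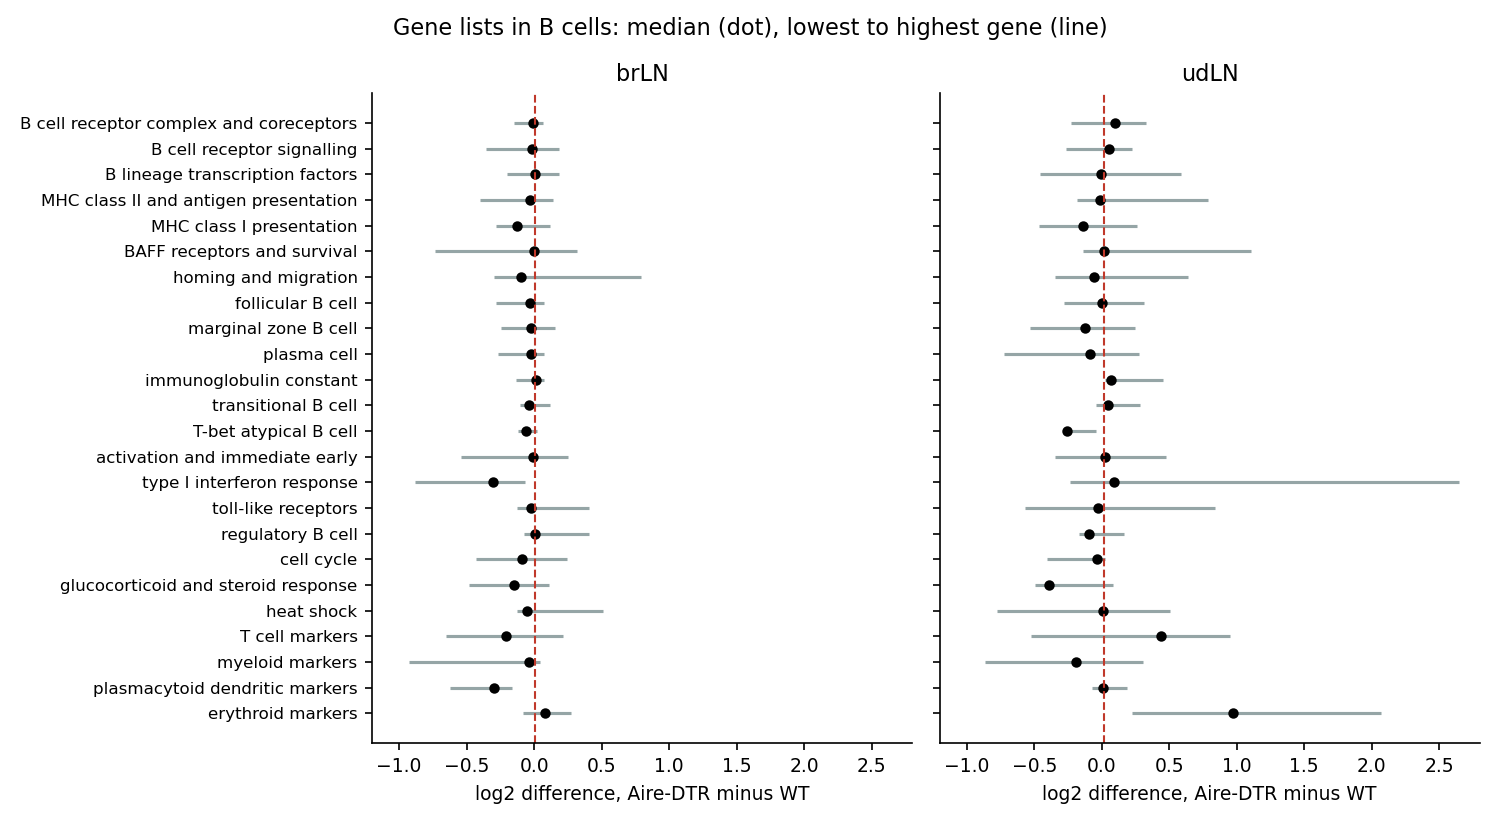
Log2 difference between Aire-DTR and WT in brLN and udLN for each list with at least 3 tested genes: the dot is the median, the grey line runs from the lowest to the highest gene, and the dashed red line is the median over all genes tested. V segments are not drawn. The erythroid list in udLN has the highest median, at 0.97, and the interferon list in brLN lies wholly below 0.

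Shares of B cells with a UMI of a gene or chain were compared next. With 4 against 3 mice the smallest p an exact two-sided permutation test can give is 0.0571, so none of the 70 tests, over 35 features in each node, could pass, and the shares are a description. They were taken with all UMIs and with every cell thinned to 1000 UMIs, for which 60 of the 2267 cells were too shallow. After thinning, 3 of the 70 tests reached that smallest p, which each reaches by chance at a rate of up to 0.0571. These were Cd69 in brLN, at 13.0% ± 1.64 (SD) in Aire-DTR and 17.5% ± 1.60 (SD) in WT, Cd83 in udLN, at 32.7% ± 5.01 (SD) and 46.0% ± 8.01 (SD), and Cd79b in udLN, at 93.9% and 87.1%. With all UMIs Cd69 in brLN was at 24.8% and 32.1% and Cd83 in udLN at 54.4% and 60.1%, whereas Cd79b in udLN stood the other way, at 98.3% and 99.4%.

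Between the nodes of the same mice, 1 of 5135 genes passed (0.0195% called), and 216 did at an unadjusted p below 0.05. Igkv6-15 fell by 1.77 (log2) in udLN, with an SE of 0.27 and an adjusted p of 0.0186 by edgeR. It stood at 182, 523, 287 and 473 CPM in Aire-DTR and 953, 478 and 545 CPM in WT brLN, and at 62, 146, 102 and 173 CPM and 43, 0 and 328 CPM in udLN. The udLN value was lower in 7 of 7 mice, and the 2181 UMIs came from 83 cells. The call was lost by DESeq2 (adjusted p 0.243), and by edgeR when mouse 4 (0.0582) or mouse 7 (0.0944) was left out, in cells of at least 1000 UMIs (0.120), with pool as the block (0.0549), with well 1 of pool LN left out (0.142) and with its second copies kept (0.173).

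Apoe, a lipid carrier and the leading gene of cluster 2, was at 197 ± 60.4 CPM (SD, n = 7) in brLN and 334 ± 112 CPM (SD, n = 7) in udLN, higher in udLN in 5 of 7 mice. Its log2 difference of 0.80 (SE 0.17) had an edgeR adjusted p of 0.217, and of 3.89e-06 once immunoglobulin genes were left out of the table. Itm2a, an X-linked membrane protein gene, was at 39.8 ± 33.5 CPM (SD, n = 7) and 10.5 ± 8.50 CPM (SD, n = 7), lower in udLN in 6 of 7 mice. Its log2 difference was -1.94 (SE 0.41, edgeR adjusted p 0.217), or -1.97 (edgeR adjusted p 0.000823) with immunoglobulin genes left out. The T cell marker list had a median of -0.26 between nodes over 11 tested genes, 3 of them positive. Whether T cell transcripts bear on Itm2a was not tested. Aprt, a purine salvage enzyme, was at 150 ± 32.1 CPM (SD, n = 7) and 98.2 ± 24.2 CPM (SD, n = 7), lower in udLN in 7 of 7 mice, and the kappa segment Igkv4-55 at 96.8 ± 58.1 CPM (SD, n = 7) and 33.3 ± 40.8 CPM (SD, n = 7), also lower in 7 of 7. Neither passed by edgeR (adjusted p 0.217 and 0.0983), and Igkv4-55 was the 1 gene DESeq2 called (-1.92, SE 0.43, adjusted p 0.0382). Of the activation list, 13 of 13 tested genes were positive for udLN, with a median of 0.12 beside -0.01 over all genes, and none passed. The orphan nuclear receptor Nr4a1, induced by receptor signals, was the furthest of them at 1.14 (SE 0.36, edgeR adjusted p 0.809), and was higher in udLN in 7 of 7 mice. Cd40, the receptor for T cell help, was lower in udLN in 7 of 7 mice, and its log2 difference was -0.42 (SE 0.14, edgeR adjusted p 0.890).

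The genotype difference itself differed between nodes for 1 of 5135 genes (0.0195% called), the kappa segment Igkv3-1, with an edgeR adjusted p of 0.0237. In brLN it had 0, 23, 21 and 0 UMIs in Aire-DTR and 0, 39 and 49 in WT, and each nonzero sum came from 1 cell. In udLN it had 0, 32, 25 and 0 UMIs in Aire-DTR, from 3 cells and 1 cell, and 0, 0 and 0 in WT. The call thus rests on 8 cells. DESeq2 lost it (adjusted p 0.999), as did edgeR when mouse 36 (0.0515), mouse 1 (0.872) or well 1 of pool LN (1.000) was left out. For Rbm3 and Id3 this difference was 0.09 (SE 0.13) and 0.39 (SE 0.19), each with an edgeR adjusted p of 1.00. The next 4 by p were also segments that did not pass, Ighv1-55 (edgeR adjusted p 0.0833) and Ighv5-17, Igkv8-19 and Ighv2-2 (0.0997 each), though each did in 1 or more of the alternative fits.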

How the data were processed

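Counts are UMIs per gene and cell, deposited by the authors in 1 table with cell classes, mouse, node, genotype and well. The build was GRCm38 and the tools were Seurat, Scanpy 1.7.0, bustools 0.40.0 and kallisto 0.46.1, per the submitters' processing notes; the labels name a 3′ kit, whereas the design text names totalseq-C hashtags, which are made for 5′ kits, so the transcript end that was counted is not settled. Identical second copies of well 1 of pool LN were counted once. Raw counts of B cells were summed per mouse and node (at least 20 cells), and tested in R 4.3.3 with edgeR 4.0.16 (TMM, low-count filter by expression, quasi-likelihood, Benjamini-Hochberg adjustment over all genes). Genotype and node were fitted jointly with pool and no term for mouse, the node comparison with mouse as a block. DESeq2 1.42.0 and limma 3.58.1 gave alternatives, and single values were tested by exact permutation over mice. Clusters came from scanpy 1.11.5 (Leiden, resolution 0.5). No doublet caller was run. Code was tested on simulated data.

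The B cells and lists were chosen with earlier results of these data known. Named genes were those past the threshold, the 5 smallest p per comparison, the 20 largest identity ratios, and fixed receptor, activation and antibody genes, with lists given by counts and medians. Cirbp, Igkv9-124, Igkv3-10 and other single list members given with values (Usp18, Bcl2a1b, Traf3, Hbb-bs, Ifit3, Nr4a1 and Cd40) were chosen after their values were seen. The alternatives on well 1 were also added after seeing the data. Where V segments and Iglc genes resemble each other, their counts are uncertain. Whether the samples of a mouse pair across genotypes was checked by pool: deviations of mice in the same pool correlated at 0.04 to 0.24 (n = 4 pairs) and in different pools at -0.19 to 0.09 (n = 8 pairs). Some genes are not reported here.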

Additional observations from a re-analysis of the deposited data

Results flagged for a closer look

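Of 88 groups of 4 Aire-DTR values examined, 4 held a mouse far from the other 3, where chance gives about 1 in 20. In udLN, cluster 5 was 7.03% of the B cells of 1 mouse and 4.22%, 4.23% and 4.50% of the others. Id3 in udLN was 417 CPM in mouse 8 and 301, 305 and 317 CPM in the others. For V segments, Ighv5-17 in brLN was 31.8 CPM in mouse 8 and 59.6, 60.6 and 62.3 CPM in the others, and Igkv1-88 in udLN was 20.6 CPM in mouse 8 and 0 in the others.

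The genotype difference of Igkv3-1 differed between nodes by an interaction term of 9.31 (log2, SE 1.24), with an adjusted p of 0.0237 by edgeR, a fitted value that depends on the prior count because several sums are 0. Its UMIs came from 8 B cells of 4 mice.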

How the results depend on the processing

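With no low-count filter, brLN gave 43 genotype genes, udLN 56, the node comparison 45 and the interaction 51, in place of 0, 0, 1 and 1. Most of these genotype genes were immunoglobulin V segments in both nodes. The rest in brLN included T cell receptor V segments, Dapl1 and Itm2a. In udLN the rest included Rbm3, Usp18, Bcl2a1b and Hbb-bs. With both nodes summed 4 genotype genes passed, and with brLN fitted alone 4. In udLN DESeq2 gave 3, all of them kappa V segments. By edgeR 1 gene each passed there in cells without T cell UMIs, in sums of at least 50 cells and with immunoglobulin genes left out. Leaving out cells with T cell UMIs and requiring at least 50 cells each dropped the sum of WT mouse 97 udLN. Leaving out 1 mouse gave 0 to 1 genes in brLN, 0 to 4 in udLN, 0 to 4 between nodes and 2 to 6 for the interaction. Between nodes, cells of at least 1000 UMIs, pool as the only block, counting cells as deposited and leaving out well 1 of pool LN each gave 0, and leaving out immunoglobulin genes 2. For the interaction, DESeq2 gave 0, cells without T cell UMIs 4, cells of at least 1000 UMIs 2, sums of at least 50 cells 3, and leaving out immunoglobulin genes or well 1 each 3. The cause was not tested. Leiden resolutions of 0.3 and 1.0 gave 4 and 11 clusters. No pairing was taken from the labels' replicate numbers, which only count wells. In their place mouse was the block between nodes and pool the term between genotypes. Without pool as the block, 0 genes passed in brLN and 0 in udLN (144 and 226 unadjusted), and the B share difference was -0.02 in brLN, of opposite sign, and -0.30 in udLN; leaving out 1 mouse gave 0.01 to 0.18 and -0.32 to -0.22. Of 1259 alternative values for 66 single-gene results, 1211 kept their side of the threshold, 37 came past it, 11 lost it and 0 reversed. The smallest sum, udLN of WT mouse 97, held 20 B cells.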
